A study of Danio rerio with 3 samples.

Results

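Hox genes encode homeodomain transcription factors that lie side by side in clusters and give cells along the body axis their position. Members with low numbers are expressed from the hindbrain and neck backwards, and members with high numbers are kept to the tail, the hind trunk and the outer parts of paired fins or limbs. The proteins bind DNA together with Pbx and Meis cofactors, their domains of expression are set up in part by retinoic acid and Cdx factors, and Polycomb and Trithorax proteins hold them off or on. In mouse and human, several members also act in endothelium and in blood progenitors, HOXA9 and HOXB4 among the best studied. Teleost fish carry duplicated clusters, which in zebrafish are named aa, ab, ba, bb, ca, cb and da after the letter and the suffix of their genes.

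The members were all gene symbols that start with hox, a cluster letter from a to d and a number. There were 48 of them among the 14581 symbols of the table for cells that were sorted out of zebrafish embryos aged 72 hpf, hours post fertilization. These embryos were wild-type apart from 2 reporters, kdrl:mCherry, which marks endothelium through the regulatory region of a Vegf receptor gene, and sele:GFP, driven by that of the E-selectin gene, which encodes an adhesion molecule. Doubly positive cells were taken from whole, untreated embryos and sequenced as 1 library. The 2 other libraries of the series, made from kdrl:GFP embryos of the same stage and holding either the positive or the negative cells, were not analysed here, because no label says which column of their table belongs to which cells. That table lists 48 Hox symbols as well. It holds hoxc11b, which has no value for the doubly positive cells and so is not among the 48 members analysed here. In all, 49 symbols occur in either table. Tables of the zebrafish Hox sequences were not used here, so none are printed.

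Values are FPKM as the authors deposited them, that is, fragments of a gene divided by its length and by the fragments of the library, so levels of different genes are compared per length. With 1 library there is no error between samples, and no test was made. High and low are meant against the rest of this library. The sources used here do not state how many fragments were sequenced, and the depth behind each value is unknown. A listed 0 was not read as absence, since the proteasome gene psmd7 and the replication gene mcm2 were also listed at 0. As a check of the sort, kdrl stood at 428 FPKM and sele at 415 FPKM, ranks 167 and 178. All 16 endothelial markers found, of 20 looked for, stood at 89.1 FPKM or above. The highest, at 843 FPKM, was cdh5, which encodes VE-cadherin. That list was chosen with earlier results of these data known, so it is no independent check. Among genes listed below for other cells, col2a1a (skeleton) at 1817 FPKM and krt8 (epidermis) at 1494 FPKM stood higher. Because this is RNA of a cell mixture, a gene used by few cells and a gene used weakly by many cannot be told apart.

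Hox genes were low in the double positive cells as a group, but a limited set of them stood above the middle of the library. Of the 48 members, 33 (68.8%) reached 1 FPKM, against 73.3% of all symbols, and 9 (18.8%) reached 10 FPKM, against 40.0% (5827 symbols). None reached 100 FPKM, which 5.51% of all symbols did. The median over the members was 2.15 FPKM, against 5.98 FPKM over all symbols, a ratio of 2.78. Only 14 members exceeded that overall median. Another 2, hoxb1b and hoxc13a, were listed at 0. The highest member, hoxb9a, stood at 26.8 FPKM, rank 2993, where 79.5% of symbols had a lower value, and kdrl was 15.99-fold higher than it.

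The 10 highest of the 48 genes carried most of the Hox signal, 65.6% of the summed Hox FPKM. The 3 highest, hoxb9a, hoxb6a at 25.1 FPKM and hoxa3a at 24.8 FPKM, made up 30.9%. They were followed by hoxd9a at 19.3 FPKM and hoxb3a at 13.9 FPKM, and the 5 highest made up 44.2%. In mouse, Hoxa3 is known to hold endothelium back from a blood fate, and HOXB3 is known from human endothelium as a gene that favours vessel growth.

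**Figure D1:**
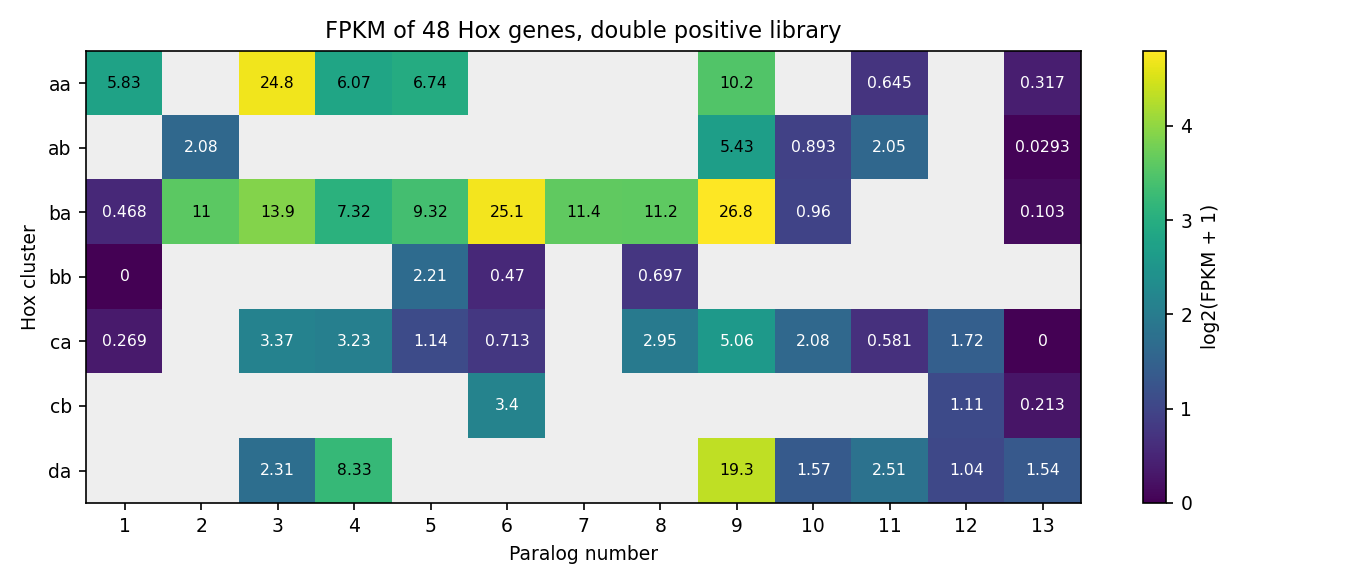
FPKM of each Hox gene (number in the cell) by cluster (vertical axis) and paralog number (horizontal axis), with colour for log2(FPKM + 1); grey cells have no gene in the table. The bright row is cluster ba from hoxb2a to hoxb9a, and columns 10 to 13 hold no value above 2.51 FPKM.

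Levels differed between clusters, and cluster ba stood highest. Its 11 members had a median of 10.97 FPKM and made up 47.3% of the summed Hox FPKM. The stretch of 8 genes from hoxb2a to hoxb9a lay between 7.32 and 26.8 FPKM, all 8 above the median of all symbols. In the reference gene table the span of hoxb3a overlaps those of hoxb4a, hoxb5a and hoxb6a, so their separate levels are uncertain. Without these genes the cluster median was again 10.97 FPKM. Going along this stretch, hoxb2a, a hindbrain gene, stood at 10.97 FPKM, hoxb3a at 13.9 FPKM, hoxb4a at 7.32 FPKM and hoxb5a at 9.32 FPKM. The mouse relative of hoxb4a is known for expanding blood stem cells, and that of hoxb5a for switching on a Vegf receptor gene in endothelial precursors. The stretch went on with hoxb6a at 25.1 FPKM, hoxb7a at 11.4 FPKM, hoxb8a at 11.2 FPKM and hoxb9a at 26.8 FPKM. Both ends of the cluster were low. At the front end hoxb1a, which specifies a single hindbrain segment and its facial motor neurons, stood at 0.468 FPKM. At the far end hoxb10a stood at 0.960 FPKM and hoxb13a at 0.103 FPKM, so that hoxb9a was 261-fold higher than hoxb13a.

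By median, cluster aa came next, with 6.07 FPKM over 7 members and 22.0% of the summed Hox FPKM. Without hoxa3a, hoxa4a and hoxa5a, whose gene spans overlap in the reference gene table, the median was 3.24 FPKM. Apart from hoxa3a, its front members lay close together, hoxa1a at 5.83 FPKM, hoxa4a at 6.07 FPKM and hoxa5a at 6.74 FPKM, all near the median of all symbols. The human relative of hoxa5a is known for restraining vessel growth. Its last members, hoxa11a and hoxa13a, known for their part in fins and limbs, stood at 0.645 and 0.317 FPKM.

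In cluster da all 7 members reached 1 FPKM, with a median of 2.31 FPKM. The highest, hoxd9a at 19.3 FPKM, was followed by hoxd4a at 8.33 FPKM, a gene of the hindbrain and anterior spinal cord. The member hoxd3a, whose human relative favours vessel growth, stood at 2.31 FPKM. The fin and limb genes hoxd10a, hoxd11a, hoxd12a and hoxd13a lay between 1.04 and 2.51 FPKM, and hoxd13a at 1.54 FPKM was the highest of the 6 members numbered 13. The other 5 of these stood between 0 and 0.317 FPKM. Cluster medians also reflect which numbers a cluster holds, since 4 of the 7 members of da but 2 of the 7 of aa are numbered 10 to 13. Those genes had a median of 1.56 FPKM in da and 0.481 FPKM in aa, and hoxd9a stood above hoxa9a at 10.2 FPKM. Members numbered 1 to 8 had medians of 5.32 FPKM in da and 6.40 FPKM in aa.

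Cluster ca had as many members as ba, 11, but none reached 10 FPKM, its median was 1.72 FPKM and it made up 8.50% of the sum. Without its 6 members with overlapping spans the median was 0.581 FPKM, below that of every other cluster treated in the same way. That median rests on hoxc1a and the 4 members numbered 10 to 13, and bb was then left with hoxb8b alone, at 0.697 FPKM. The clusters are thus not compared on like members. Its highest member was hoxc9a at 5.06 FPKM, before hoxc3a at 3.37 FPKM, hoxc4a at 3.23 FPKM and hoxc8a at 2.95 FPKM. Lower still were hoxc10a at 2.08 FPKM, hoxc12a at 1.72 FPKM and hoxc5a at 1.14 FPKM. The remaining members hoxc6a, hoxc11a, hoxc1a and hoxc13a stood at 0.713, 0.581, 0.269 and 0 FPKM. The duplicated clusters with suffix b were small, and with all members counted each had a lower median than its suffix a counterpart. The 5 members of ab had a median of 2.05 FPKM, the 3 of cb a median of 1.11 FPKM and the 4 of bb a median of 0.583 FPKM, 18.8-fold below that of ba. On like numbers the order was mixed. For 1 to 8, hoxc6b at 3.40 FPKM stood above the ca median of 2.04 FPKM. For 10 to 13, ab had a median of 0.893 FPKM and aa 0.481 FPKM. Lower than their counterparts were ab and bb for 1 to 8 (2.08 against 6.40 and 0.583 against 11.1 FPKM). The same held for cb for 10 to 13 (0.660 against 1.15 FPKM) and for hoxa9b. Together the 12 genes with suffix b made up 7.48% of the summed Hox FPKM.

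**Figure D2:**
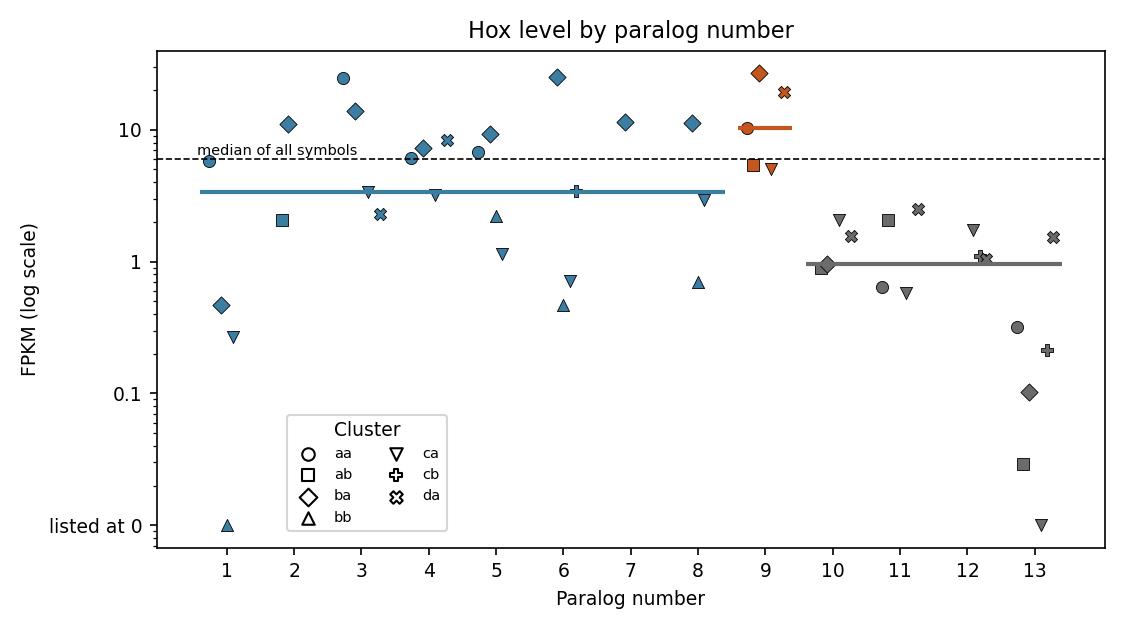
FPKM (log scale) of each Hox gene against its paralog number; marker shape gives the cluster, colour and thick lines the groups 1 to 8, 9 and 10 to 13 with their medians, the dashed line the median of all symbols, and genes listed at 0 are drawn at the bottom. All 5 members numbered 9 lie above all 17 numbered 10 to 13.

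Taken over all clusters together, the level fell sharply after paralog number 9. The 5 members numbered 9 had a median of 10.2 FPKM, the 26 numbered 1 to 8 a median of 3.39 FPKM and the 17 numbered 10 to 13 a median of 0.960 FPKM. Group 9 was thus 3.03-fold above the anterior and middle genes and 10.7-fold above the posterior ones. With 5 of 48 genes it made up 26.9% of the summed Hox FPKM, and the 17 posterior genes made up 6.99%. The range of group 9 did not overlap that of the posterior genes. The lowest of group 9, hoxc9a at 5.06 FPKM, was 2.02-fold above hoxd11a, the highest posterior gene at 2.51 FPKM. Members numbered 1 to 8 ranged from 0 to 25.1 FPKM and overlapped both.

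A drop after 9 was seen in each of the 5 clusters that hold a member numbered 9. In ba, hoxb9a was 27.9-fold above its neighbour hoxb10a. In aa, hoxa9a at 10.2 FPKM was 15.9-fold above hoxa11a, the next gene in the table. In da, hoxd9a was 12.3-fold above hoxd10a. In ab, hoxa9b at 5.43 FPKM was 6.09-fold above hoxa10b at 0.893 FPKM. The drop was smallest in ca, where hoxc9a was 2.43-fold above hoxc10a. On the other side the gene before 9 was lower too, by 1.52-fold (hoxa5a below hoxa9a) to 2.61-fold (hoxa2b at 2.08 FPKM below hoxa9b). Taken alone, ca shows no break particular to 9. Its hoxc10a at 2.08 FPKM stood above hoxc5a at 1.14 FPKM, and the step from hoxc8a at 2.95 FPKM to hoxc6a at 0.713 FPKM was wider. Exceptions were also seen elsewhere. In da, hoxd11a at 2.51 FPKM stood above hoxd3a at 2.31 FPKM. In ba, hoxb10a at 0.960 FPKM stood above hoxb1a at 0.468 FPKM. In ab, the step from hoxa11b at 2.05 FPKM to hoxa13b at 0.0293 FPKM was wider than that after hoxa9b. In aa every member up to hoxa9a stood above hoxa11a and hoxa13a. The same order held narrowly in ab, with hoxa2b at 2.08 FPKM above hoxa11b at 2.05 FPKM. Fold steps at other numbers were not computed. In mouse and human blood progenitors HOXA9 acts with MEIS1, and HOXA9 is also known as a regulator of endothelial genes.

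Below 9 the level did not follow the number in a simple way. Members numbered 1 were low except hoxa1a, with a median over the 4 of 0.368 FPKM. The median was 6.52 FPKM for the 2 numbered 2, 8.64 FPKM for number 3, 6.69 FPKM for number 4, 4.48 FPKM for number 5 and 2.06 FPKM for number 6, with 4 genes each from 3 to 6. The single gene numbered 7, hoxb7a, stood at 11.4 FPKM, above the median of group 9, and the 3 numbered 8 had a median of 2.95 FPKM. Among posterior genes, number 10 had a median of 1.27 FPKM, number 11 of 1.35 FPKM, number 12 of 1.11 FPKM and number 13 of 0.158 FPKM. Across the 48 genes Spearman's rho between number and FPKM was -0.38. Within the clusters of 7 or more members it was -0.50 in aa, -0.64 in da, -0.25 in ca and -0.02 in ba. These genes share 1 library and are not independent replicates, so the values only describe it.

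Some of these levels are uncertain because Hox genes share sequence and lie inside each other. In the reference gene table, which describes a later assembly than the data, the spans of 18 of the 48 members overlap another Hox gene. There hoxb3a spans hoxb4a, hoxb5a and hoxb6a, and hoxa3a spans hoxa4a and hoxa5a. Likewise hoxc3a spans 5 genes from hoxc4a to hoxc9a, hoxd3a spans hoxd4a, and hoxb1b overlaps hoxb5b and hoxb6b. How the authors' annotation divided such reads, and whether strand was used, was not stated in the labels or the processing notes. The 18 overlapping members had a median of 4.22 FPKM and the other 30 a median of 1.56 FPKM. Among these 30 were 6 of the 9 members at or above 10 FPKM, namely hoxb9a, hoxd9a, hoxb7a, hoxb8a, hoxb2a and hoxa9a. Without the overlapping members, which include hoxc9a, the ratio of the group 9 median to the posterior median was 15.4.

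Copies that arose by duplication stood at different levels. Of 10 pairs with both copies in the table, the copy with suffix a was higher in 7. The widest gap was that of hoxb6, with hoxb6a at 25.1 FPKM and hoxb6b at 0.470 FPKM, a ratio of 53.4. For hoxb8 the values were 11.2 and 0.697 FPKM, a ratio of 16.01, and for hoxb5 they were 9.32 and 2.21 FPKM, a ratio of 4.21. The opposite order held for hoxc6, with hoxc6b at 3.40 FPKM 4.77-fold above hoxc6a, for hoxa11, with hoxa11b at 2.05 FPKM 3.18-fold above hoxa11a, and for hoxc13, with hoxc13b at 0.213 FPKM and hoxc13a at 0. The closest pairs were hoxc12, with a ratio of 1.56, and hoxa9, with a ratio of 1.89. On the log2(FPKM + 1) scale, which narrows gaps between low values, 4 of the 10 pairs differed by more than 1 and the median difference of a against b was 0.46. In the remaining pairs hoxa13b stood at 0.0293 FPKM and hoxb1b at 0, below copies that were themselves under 1 FPKM. The spans of both hoxb6 copies, both hoxb5 copies, hoxc6a and hoxb1b overlap another Hox gene, so these levels are uncertain. Of the 4 pairs that differed by more than 1, hoxb6, hoxb5 and hoxc6 are affected and hoxb8 is not. The pairs were not compared with overlapping members left out.

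**Figure D3:**
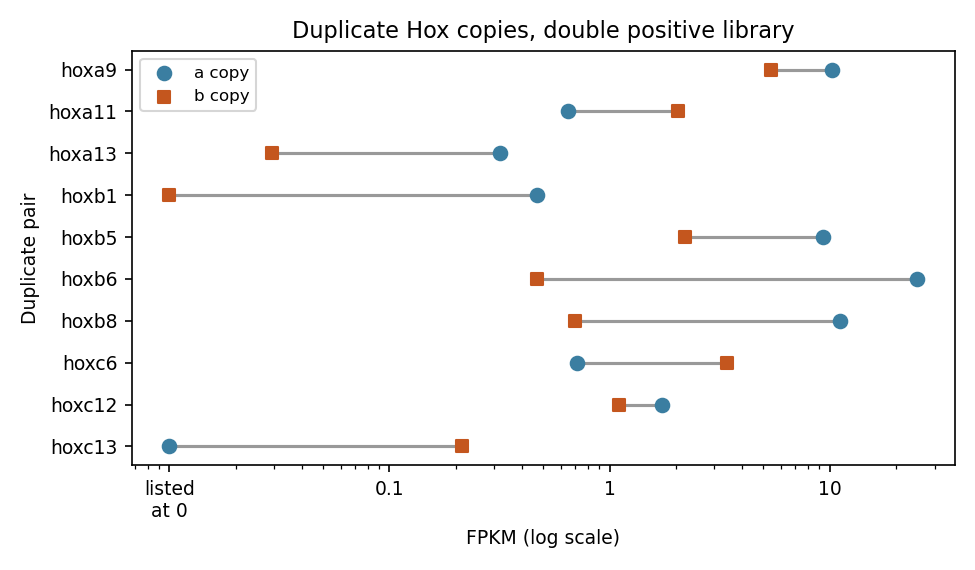
FPKM (log scale) of the a copy (circles) and the b copy (squares) of 10 duplicated Hox pairs; a copy listed at 0 is drawn at the left edge. The a copy is higher in 7 pairs, with the widest gap, 53.4-fold, between hoxb6a and hoxb6b. The spans of these copies each overlap another Hox gene, so that gap is uncertain.

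By median, the genes for partners of Hox proteins stood above the Hox genes, though their ranges overlapped. All 12 Pbx, Meis and Pknox genes found, of 16 looked for, stood at 4.16 FPKM or above, with a median of 28.1 FPKM. The highest was meis2a at 323 FPKM, rank 237 and 12.1-fold above hoxb9a. It was followed by pbx4 at 72.9 FPKM, pbx2 at 58.9 FPKM and meis1 at 53.8 FPKM. At the low end meis3, meis4.1a, pbx3b and meis2b stood between 4.16 and 5.72 FPKM, below the median of all symbols. The Cdx factors and other relatives of the Hox family were low, with a median of 0.348 FPKM over 14 genes. None reached 10 FPKM, against 40.0% of all symbols. Among them cdx4, a regulator of Hox genes in tail and blood formation, stood at 4.49 FPKM, followed by gbx2, mnx1 and gbx1 at 4.03, 1.93 and 1.36 FPKM. The genes cdx1a, cdx1b, gsx1, gsx2 and eve1 were listed at 0.

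Of the chromatin regulators that keep Hox genes off or on, all but 1 of those found reached 1 FPKM. Among all symbols 73.3% did. The 20 Polycomb genes found of 22 had a median of 14.6 FPKM. Their highest were cbx7a, a reader of the repressive histone mark, at 124 FPKM, jarid2b at 49.2 FPKM, suz12b, a core subunit of the enzyme complex that writes the mark, at 42.1 FPKM and phc2a at 34.3 FPKM. The lowest was pcgf5a at 0.932 FPKM. The 9 Trithorax and demethylase genes found of 13 had a median of 21.8 FPKM. They were led by kdm6bb, whose product removes the repressive mark, at 65.6 FPKM, before the methyltransferase subunit genes dpy30 and wdr5 at 31.9 and 29.1 FPKM and the methyltransferase gene kmt2a at 25.8 FPKM.

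Retinoic acid genes had a median of 7.71 FPKM over 20 genes, of which 17 (85%) reached 1 FPKM, against 73.3% of all symbols. The receptor genes rxraa, rxrba and rarga stood at 47.1, 40.4 and 39.96 FPKM, and cyp26b1, which breaks retinoic acid down, at 36.2 FPKM. The microRNA genes mir10 and mir196, which lie within Hox clusters, were listed at 0 in all 9 cases found, as were 289 of the 295 symbols that start with mir and a number or with let7.

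**Figure D4:**
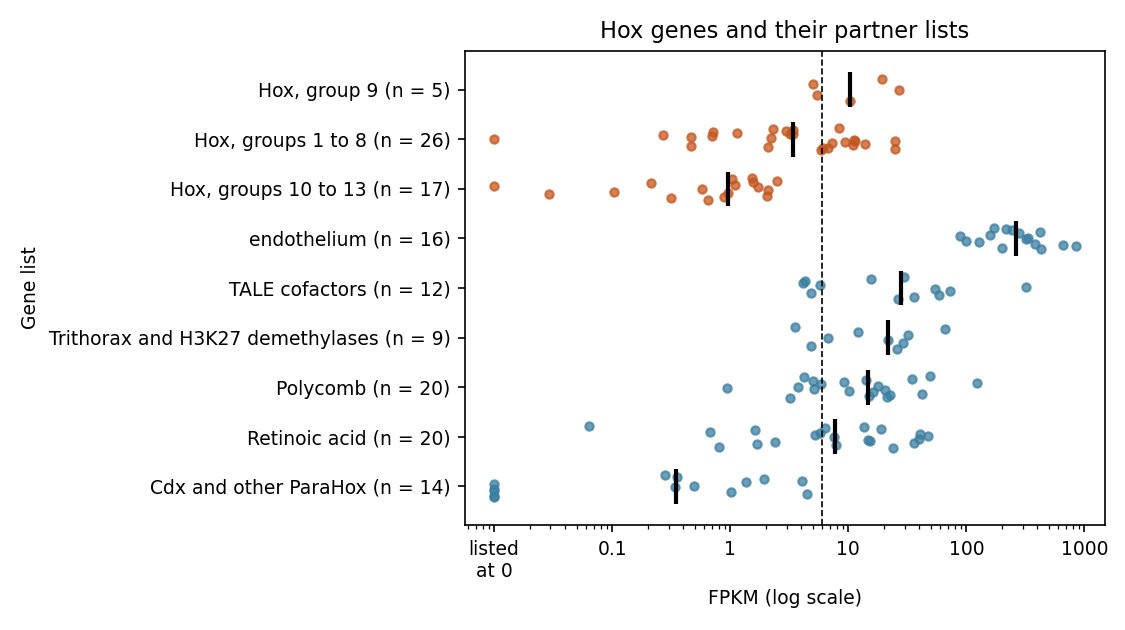
FPKM (log scale) of Hox genes by paralog group (orange) and of endothelial markers and Hox partner lists (blue); points are genes, black bars medians, the dashed line the median of all symbols, and genes listed at 0 are drawn at the left edge. Group 9, with a median of 10.2 FPKM, lies between the retinoic acid and Polycomb medians of 7.71 and 14.6 FPKM, and posterior Hox genes have a median of 0.960 FPKM against 0.348 FPKM for the Cdx list.

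Other cells of the embryo also use Hox genes, and genes listed as their markers stood at levels that differed between and within lists. Over all 14581 symbols, 1851 were listed at 0 and the median was 5.98 FPKM. Of the spinal cord and neuron list 17 of 18 genes were found, with a sum of 108 FPKM and a median of 1.98 FPKM; stmn2a stood at 24.0 FPKM and gap43 at 0. Of the fin mesenchyme and skeleton list 16 of 19 were found, with a median of 6.56 FPKM. Its sum was 2078 FPKM, of which the cartilage collagen gene col2a1a alone gave 1817 FPKM, and none was at 0. The pronephros list was low, with 10 of 13 found, a sum of 19.7 FPKM and a median of 1.45 FPKM. None of its genes was at 0 and none reached 10 FPKM. The muscle and somite list had 14 of 14 found, a median of 8.44 FPKM, a sum of 208 FPKM and myf5 at 0. The blood list had 15 of 18 found, a median of 28.5 FPKM and a sum of 765 FPKM. Of that sum the globin genes hbae3 and hbae1 gave 252 and 200 FPKM. In the blood list 10 genes (66.7%) reached 10 FPKM, and the lowest, mpeg1, stood at 1.43 FPKM. The epidermis list had 9 of 10 found, a median of 17.9 FPKM and a sum of 1717 FPKM, of which krt8 gave 1494 FPKM. Of its genes 5 (55.6%) reached 10 FPKM, and the lowest, cdh1, stood at 2.11 FPKM. None was at 0 in either list. The list of head factors had 18 of 21 found, a sum of 158 FPKM and hesx1 at 0. It holds mafba, egr2a and egr2b, known from the hindbrain within the Hox domain, which stood at 97.0, 12.5 and 3.15 FPKM. Whether these values came from hindbrain cells was not tested. The other 15, genes of the forebrain, eye and midbrain, had a sum of 45.7 FPKM and a median of 1.82 FPKM, a division made after the values were seen. Whether the endothelial cells themselves expressed genes of these lists was not tested, nor was the part of other cells in the Hox values.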

How the data were processed

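RNA of sorted cells from zebrafish embryos at 72 hpf was sequenced in 3 libraries, 1 per group. Per the labels' protocols, 10000 to 300000 cells were collected for each population, and 50 ng of total RNA went into each library after ribosomal RNA was depleted. The submitters' processing notes name cutadapt, TopHat2 2.0.11, Cufflinks 2.2.1 and, as the genome build, Zv9 (danRer7). The authors deposited FPKM values, 1 per symbol. Neither the annotation nor the fragment numbers were given in these sources.

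The 2 value columns of the kdrl:GFP table were not used, since their names match no label, and only its symbols were read. The planned differences between sorted populations were therefore not computed.

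Symbols were split into cluster and paralog number. Rank percentiles (ties at their mean rank), counts at 1, 10 and 100 FPKM and medians were computed with Python 3.11.15, pandas 2.3.3 and scipy 1.17.1. Ratios of duplicates on the log2 scale used a pseudocount of 1 FPKM. Of 49 Hox genes in the reference gene table (GRCz12tu), 48 had a value for the double positive cells. That table gave names, neighbours and overlaps only. The computations were tested on simulated data. Members and lists were chosen with earlier results of these data known. Every Hox member could be named, along with kdrl, sele, members listed at 0 and the 4 highest of each partner list; other genes named, among them psmd7, mcm2 and low members of lists, were chosen after their values were seen.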

Additional observations from a re-analysis of the deposited data

How the results depend on the processing

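The order of the groups and clusters was examined under each alternative that could be run. With members listed at 0 left out, the median over the Hox genes was 2.26 FPKM at the 35.6th rank percentile, against the 34.97th with them. The medians of groups 1 to 8 and 10 to 13 were then 3.40 and 1.003 FPKM, the ratio of group 9 to 10 to 13 was 10.2, and clusters bb and ca had medians of 0.697 and 1.90 FPKM. Without hoxb9a the overall median was 2.08 FPKM (34.6th percentile), that of group 9 was 7.84 FPKM, the ratio was 8.17 and cluster ba had a median of 10.1 FPKM. When all values were scaled to a common sum, each was multiplied by 1.87. The overall median was then 4.02, those of groups 1 to 8, 9 and 10 to 13 were 6.34, 19.2 and 1.80, and 39 members reached 1. Cluster medians on that scale were 11.3 for aa, 3.84 for ab, 20.5 for ba, 1.09 for bb, 3.22 for ca, 2.07 for cb and 4.32 for da. By construction, ranks and ratios do not depend on it.

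The median rank percentile was 26.2 among symbols above 0, 27.6 for the 33 members at or above 1 FPKM among such symbols, and 33.8 without microRNA, ribosomal, mitochondrial and small RNA symbols. Leaving out the 18 overlapping members, an alternative chosen after seeing the data, left 18 members at 1 FPKM or more of 30, with a median of 1.56 FPKM (31.4th percentile). The medians of groups 1 to 8 and 9 were then 3.40 and 14.8 FPKM, the ratio was 15.4, and clusters aa, bb, ca and da had medians of 3.24, 0.697, 0.581 and 1.57 FPKM. In these settings ba remained the highest cluster and group 9 the highest group. Cluster bb was the lowest in all of them but the last, where ca was lower. In that setting bb was left with hoxb8b alone, and ca with hoxc1a and its 4 members numbered 10 to 13.

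For duplicates, the median log2 difference of a against b was 1.30 with a pseudocount of 0.1 FPKM and 0.13 with 5 FPKM, and a stayed higher in 7 pairs. Of the 3 pairs with both copies at 1 FPKM or more, all 3 had the a copy higher, with a median of 0.81. Synonyms added 0 members. Alternatives for differences between sorted cells were not run, as their columns were not used. No paired analysis was possible because each group holds 1 library. Depth is unknown and there were no replicates, so no single value, down to the lowest genes numbered 13, carries an error.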

Other observations

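Genes that border the Hox clusters were mostly higher than the Hox genes. From the order of the reference gene table, the 3 nearest other protein-coding genes on each side of the 7 clusters were taken, a choice made after the data were seen. Of these 42 positions 34 had a value, with a median of 13.6 FPKM. The highest were the ATP synthase subunit genes atp5g1 beside cluster ba at 326 FPKM and atp5g3a beside da at 213 FPKM, and the heterochromatin protein gene cbx3a beside aa at 174 FPKM. The Hox relatives evx2, beside the posterior end of da, and eve1, beside that of ba, stood at 0.489 and 0 FPKM. Their relative evx1, whose span overlaps cluster aa in that table and so is not among these positions, stood at 0.338 FPKM. At the anterior ends of aa and ab, snx10a and snx10b were listed at 0. The retinoic acid receptor genes rarga at 39.96 FPKM and rargb at 7.54 FPKM border the posterior sides of ca and cb.

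Other families of developmental transcription factors, also chosen after the data were seen, give a scale for the Hox median of 2.15 FPKM. The homeodomain families chosen here had lower medians. Nkx genes stood at 0.251 FPKM over 15 genes, Irx at 0.439 FPKM over 11 and Dlx at 0.920 FPKM over 8. Pou genes stood at 1.28 FPKM over 14, Lhx at 1.47 FPKM over 10 and sine oculis homeobox genes at 1.93 FPKM over 13. The Pbx, Meis and Pknox genes, not among these families, had a higher median of 28.1 FPKM over 12. Pax genes, only some of which encode a homeodomain, stood at 1.40 FPKM over 11 genes, and Tbx genes at 1.45 FPKM over 15. Sox and Fox genes had medians of 3.41 and 4.36 FPKM over 24 and 46 genes, Gata genes 11.3 FPKM over 7 and Klf genes 78.3 FPKM over 15.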
